A study of Mus musculus with 212 samples.

Results

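The cells described here are late heart muscle cells grown from mouse embryonic stem (ES) cells: 10 single cells of culture day 23 (D23) and 10 of day 29 (D29). They were taken by name, as every cell column called D23 or D29 in the one table that holds both days. They are 20 of the 200 single-cell columns in the series, among which some cells recur. The series also holds earlier ES-derived cells, embryo cells, reference cells and neonatal and adult heart cells in 6 other tables. The labels give the source as embryoid bodies (balls of differentiating ES cells) and the cell type as cardiac. The sample titles place these cells at early stages, whereas the table and the cell names give D23 and D29, and the names were followed. The sources used here do not give the ES line, its genotype, any treatment, how heart cells were picked for sorting, or the number of cultures behind each day. By their markers they are heart muscle cells: both assays of Tnnt2, Tnni3 and Myh6, and that of Actn2, gave a signal in all 20, and endothelial assays in none.

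Heart muscle cells contract through sarcomeres, in which myosin heavy chains (Myh6, Myh7) and light chains (Myl2) pull on thin filaments that troponins (Tnnt2, Tnni3) switch on with calcium. Transcription factors of the cardiac core, among them Gata4, Mef2c, Nkx2-5, Hand1, Hand2 and Tbx5, switch on these genes in development. In the mouse, Myh6 is the main adult heavy chain, Myh7 the main ventricular heavy chain before birth, Myl2 a light chain of ventricular muscle, and Sln (sarcolipin, an inhibitor of the calcium pump) a gene of atrial muscle.

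Expression was measured in each cell by quantitative PCR with 42 TaqMan assays for 33 genes, 9 of which have 2 assays with numbered names. The deposited value is the quantification cycle, Ct, with 25 for an assay that gave no signal. A level here is 25 minus Ct in cycles, so that 0 means not detected and a higher level means more template. A difference of 1 cycle is 1 log2 unit at full PCR efficiency. Each day counts as 1 sample, because no label names a culture or an animal. The SDs below are between cells, no test between days was possible, and "higher" and "lower" describe these cells only. The assays of 1 gene are not independent of each other. Their sequences are not in the sources used here, so whether they read the same transcripts is not known.

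The negative control of the table gave no signal on any of the 42 assays, and the positive control gave a signal on all 42. The positive control of this table was not the one of the D5-D8 table: its Actb level was lower, at 18.20 against 18.83. Over the 42 assays the median of the Ct differences between these controls was -0.88 cycles. The median assay thus had a lower Ct, and so a higher level, in this table, unlike Actb. Of the D29 cells, 2 recur in the table of reference cells: D29-2 and D29-3 have the same values in all 42 assays as the reference heart muscle cells CM-1 and CM-2. For several results the values without these 2 cells are given as well. Cells detected 17 to 22 assays on D23, with a median of 21 and a mean of 19.9 ± 2.08 (SD, n = 10 cells). On D29 they detected 17 to 27, with a median of 23 and a mean of 22.4 ± 3.06 (SD, n = 10 cells). Actb, the cytoskeletal actin used as housekeeping gene, lay between 4.43 and 6.84 on D23 and between 4.16 and 7.08 on D29, with means of 5.84 ± 0.81 and 5.62 ± 1.03 (SD, n = 10 cells each).

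Of the 42 assays, 16 (38.1%) had a mean at least 1 cycle higher on D29 and 3 (7.14%) a mean at least 1 cycle lower. Assays of troponins, the heavy chain Myh6 and the cardiac transcription factors Gata4, Mef2c, Nkx2-5, Hand2 and Tbx5 were 13 of the 16, and the other 3 were the mesenchymal genes Vim and Pdgfra and the pluripotency gene Sox2. Both assays of the heavy chain Myh7 and the transcription factor Hand1 made up the lower side. Of the others, 14 differed by less than 1 cycle and 9 were detected in no cell. The median difference over all 42 assays was 0.61 cycles, and over the 33 detected ones 0.74 cycles. The difference was larger than the SD between cells of either day for 6 of the 16 higher assays (Gata4-2, Mef2C-2, Tnnt2-2, Tnni3-2, Myh6-1 and Myh6-2) and for 0 of the 3 lower ones. With each of the 20 cells left out in turn, 8 of the 16 higher assays (both assays of Gata4, Mef2C and Myh6, with Tnnt2-2 and Tnni3-2) and 1 of the 3 lower ones (Myh7-2) stayed past 1 cycle. Without D29-6, or without D29-8, the count of lower assays was 1, Myh7-2. The 2 recurring cells set aside, 12 assays passed 1 cycle upward and 4 downward.

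**Figure D1:**
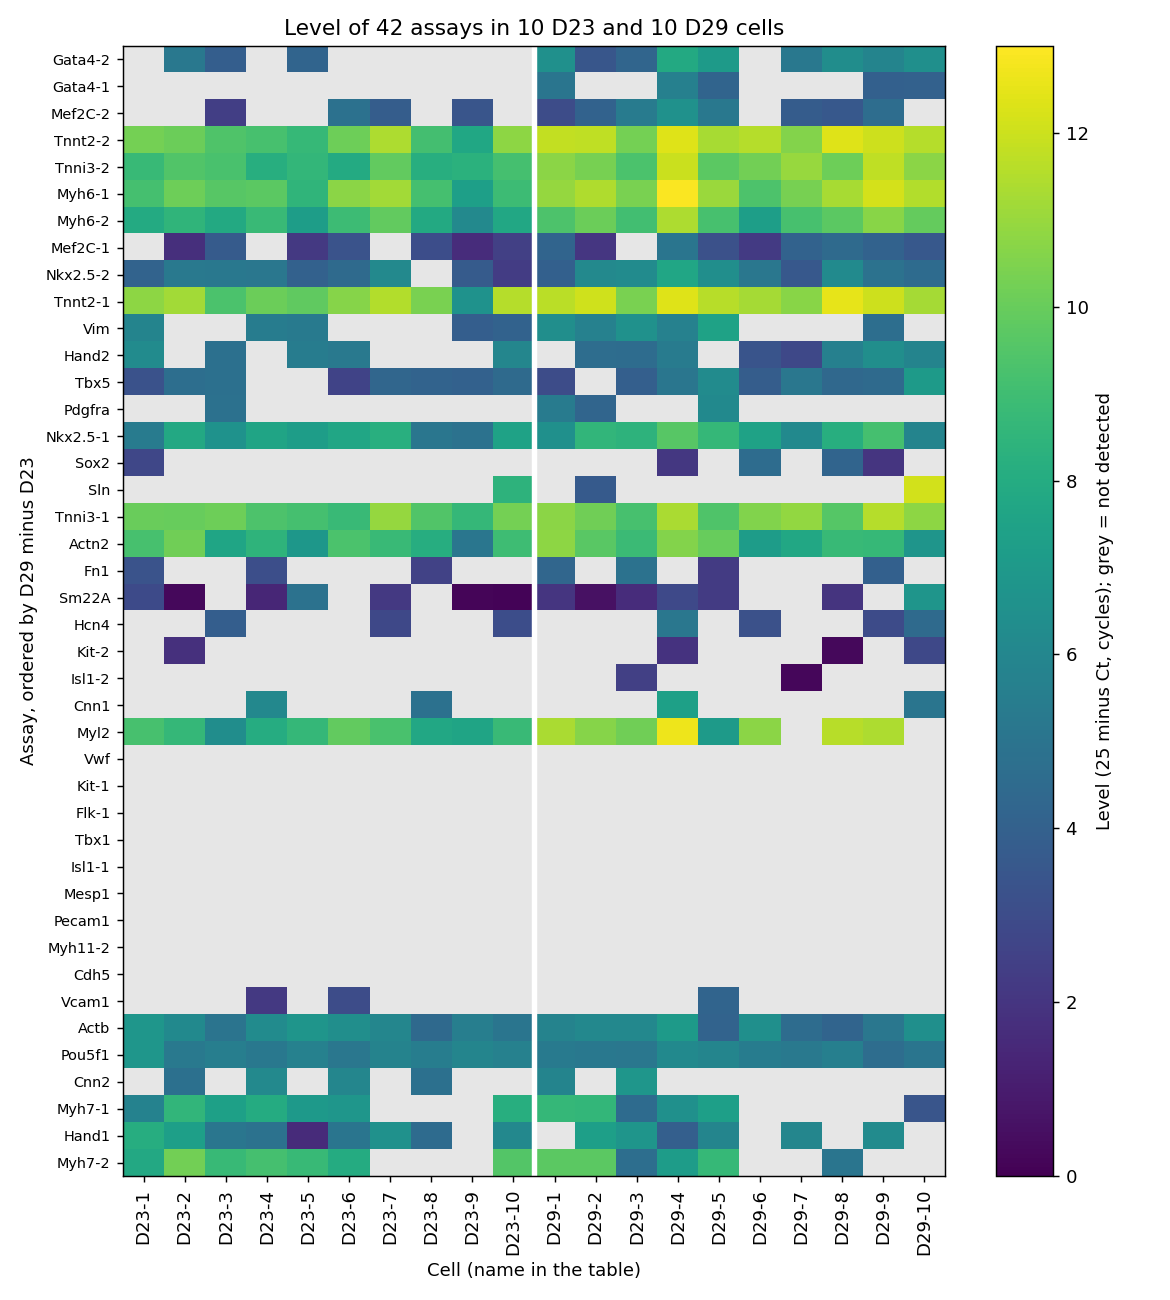
Level (25 minus Ct, cycles, colour) of the 42 assays (rows, ordered by the D29 minus D23 difference of means) in the 10 D23 and 10 D29 cells (columns), with grey for assays not detected. The rows of Gata4-2 and Gata4-1 at the top turn from mostly grey to mostly coloured or mixed between the days, the Tnnt2, Tnni3, Myh6 and Actn2 rows are coloured in every cell, and 9 rows are grey throughout.

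The troponins, Myh6 and Actn2 were detected in every cell, and their mean levels were higher on D29, by at least 1 cycle on 5 of 7 assays and by less on Tnni3-1 and Actn2. Tnnt2, cardiac troponin T, ties the troponin complex to the thin filament. By its assay Tnnt2-2 the level was lowest at 7.74, with a median of 9.75 and a highest value of 11.42 on D23. The matching values on D29 were 10.28, 11.67 and 12.39. The means were 9.69 ± 1.07 and 11.56 ± 0.69 (SD, n = 10 cells each), a difference of 1.87 cycles. The days overlapped, but 7 of the 10 D29 cells lay above the highest D23 cell. Tnnt2-1 ran from 6.61 to 11.54 with a median of 10.51 on D23, and from 10.37 to 12.53 with a median of 11.64 on D29. Its mean was higher by 1.39 cycles, with 6 D29 cells above the highest D23 cell. The lowest D23 value of both assays was that of cell D23-9, without which the Tnnt2-1 difference was 0.99 cycles.

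Cardiac troponin I, Tnni3, is the inhibitory subunit and the form that replaces the fetal one as heart muscle matures. Tnni3-2 had D23 levels of 7.94 to 9.86 with a median of 8.68, and D29 levels of 9.31 to 11.98 with a median of 10.54. The means were 8.77 ± 0.65 and 10.60 ± 0.84 (SD, n = 10 cells each), which differ by 1.83 cycles. Of the contractile assays it separated the days most: 8 D29 cells lay above the highest D23 cell, and 8 D23 cells below the lowest D29 cell. The other assay of the gene gave a smaller difference: Tnni3-1 averaged 9.69 ± 0.72 and 10.42 ± 0.81 (SD, n = 10 cells each), 0.74 cycles higher on D29, with 2 D29 cells above the D23 range. Both assays nevertheless ordered the cells alike, with a Pearson correlation of 0.86 over the 20 cells, which share 1 table and 1 gene.

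Myh6, the alpha heavy chain of fast cardiac myosin, was higher by both assays. Levels by Myh6-1 were 7.34, 9.41 and 11.22 (lowest, median, highest) on D23 and 9.38, 11.18 and 12.92 on D29. The means of 9.46 ± 1.12 and 11.15 ± 0.99 (SD, n = 10 cells each) differ by 1.69 cycles, and 5 D29 cells exceeded all D23 cells. Myh6-2 gave a difference of 1.51 cycles, from 8.09 ± 1.02 to 9.60 ± 1.10 (SD, n = 10 cells each), and its correlation with Myh6-1 was 0.98 over the 20 cells. Actn2, the alpha-actinin of the Z-disc, was also detected in all cells, at 5.11 to 10.17 on D23 and 6.80 to 10.79 on D29. Its means of 8.27 ± 1.45 and 8.92 ± 1.37 (SD, n = 10 cells each) differ by 0.65 cycles, less than either SD. The D23-9 cell was the lowest of its day on Tnnt2-1, Tnnt2-2, Myh6-1, Myh6-2, Actn2 and Tnni3-1, while its Actb level was 5.55.

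**Figure D2:**
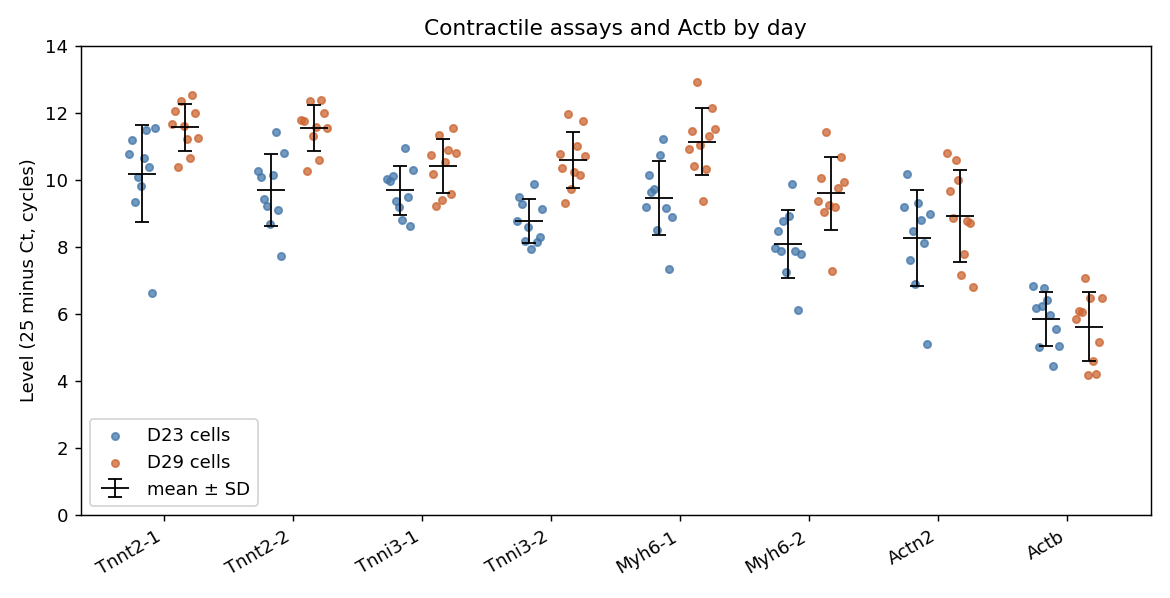
Level (25 minus Ct, cycles) of 7 contractile assays and Actb in each D23 (blue) and D29 (orange) cell, with bars for the mean ± SD between the 10 cells of a day. The D29 points of Tnnt2-2, Tnni3-2 and Myh6-1 sit higher than most D23 points with overlap, while the Actb means of 5.84 and 5.62 lie close together.

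The Actb difference of -0.23 cycles had the opposite sign to those of Tnnt2, Tnni3, Myh6 and Actn2. Scaling each cell to its Actb level left 16 assays higher and 3 lower, the same assays as before, with Tnnt2-2 at 2.10, Tnni3-2 at 2.06 and Myh6-1 at 1.92 cycles. Undetected values were not scaled but set to 1 shared value, the lowest scaled value of any assay and cell. For the 10 higher assays with undetected cells, and for the 3 lower ones, the result rests in part on that value. Across the 20 cells Actb levels had a correlation of -0.03 with Tnnt2-1 and 0.04 with Myh6-1, whereas Tnnt2-1 and Myh6-1 had one of 0.78. These correlations describe 20 cells that share a table and 2 days. Without the recurring cells the differences were 1.48 cycles for Tnnt2-1, 2.02 for Tnni3-2 and 1.74 for Myh6-1.

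Tnnt2, Tnni3 and Myh6 are the 3 contractile genes that were higher together, and the 250 bases upstream of each are shown as the promoters of that group. They are on the strand of the gene, from RefSeq annotation of GRCm38.p6, at chr1:135836084-135836333 (plus strand) for Tnnt2, chr7:4522529-4522778 (minus strand) for Tnni3 and chr14:54966608-54966857 (minus strand) for Myh6. Capitals mark a GATA motif, searched as AGATAA or TGATAA on both strands.
Tnnt2: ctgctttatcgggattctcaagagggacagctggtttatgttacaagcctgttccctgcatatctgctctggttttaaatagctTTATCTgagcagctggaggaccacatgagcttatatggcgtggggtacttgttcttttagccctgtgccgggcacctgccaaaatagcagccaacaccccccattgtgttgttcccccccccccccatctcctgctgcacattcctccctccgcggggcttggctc
Tnni3: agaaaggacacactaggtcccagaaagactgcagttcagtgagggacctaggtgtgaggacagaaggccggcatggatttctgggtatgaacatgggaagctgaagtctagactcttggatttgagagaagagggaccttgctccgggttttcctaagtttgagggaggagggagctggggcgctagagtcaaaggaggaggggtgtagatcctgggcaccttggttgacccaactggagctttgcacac
Myh6: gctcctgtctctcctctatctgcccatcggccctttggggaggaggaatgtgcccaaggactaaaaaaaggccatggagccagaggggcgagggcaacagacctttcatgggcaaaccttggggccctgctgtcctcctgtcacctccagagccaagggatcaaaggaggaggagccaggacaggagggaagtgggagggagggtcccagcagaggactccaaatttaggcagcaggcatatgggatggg
This window of Tnnt2 held 1 GATA match in the forms searched, and those of Tnni3 and Myh6 held 0. Other forms of the motif, such as AGATAG, were not searched or marked. The Myh6 window holds CTATCT, the reverse complement of AGATAG. The annotation gives Tnnt2 a further start, whose window at chr1:135836739-135836988 held 0 GATA matches. The searches for CAAGTG (NKX2-5), the CArG box and the MEF2 motif, on both strands, found 0 matches in the 3 windows shown. Of 32851 windows of this length in the same annotation, 16.6% held the GATA motif in the forms searched. The NKX2-5 motif was in 11.6%, a CArG box in 1.47% and the MEF2 motif in 2.92%, so a single match in 3 windows is a description only.

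With undetected cells counted as 0, the largest differences between the days were those of Gata4-2, Gata4-1 and Mef2C-2. Over detecting cells alone that order did not hold: Gata4-2 was 1.49 cycles higher and Mef2C-2 0.90, beside 2.28 for Myl2 and 1.87 for Tnnt2-2. Gata4 and Mef2c, zinc-finger and MADS-box factors of the cardiac core, were higher by both assays each; Gata4-2 and Mef2C-2 were detected in a minority of D23 cells and in most D29 cells. Detection differed by at least 3 cells on 6 assays: 5 of 42 (11.9%) were detected in at least 3 more cells on D29, namely Gata4-2, Gata4-1, Mef2C-2, Hand2 and Sox2. Hand1 alone (2.38% of assays) was detected in at least 3 fewer. Gata4-2 was detected in 3 of 10 D23 cells (30%, exact Clopper-Pearson 95% interval 6.67% to 65.2%) and in 9 of 10 D29 cells (90%, 55.5% to 99.7%). Such intervals cover counting error only.

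On D23 the detecting cells of Gata4-2 were D23-2 at 5.19, D23-3 at 3.88 and D23-5 at 4.17. On D29 the levels were 6.54, 3.48, 4.24, 7.91 and 7.09 in cells 1 to 5, not detected in cell 6, and 5.21, 6.38, 5.85 and 6.47 in cells 7 to 10. The means over all cells were 1.32 ± 2.16 and 5.32 ± 2.28 (SD, n = 10 cells each), a difference of 3.99 cycles, the largest of the 42. Among detecting cells alone the means were 4.42 and 5.91, so that both the number of detecting cells and their level were higher. With 7 D29 cells above the highest D23 cell, the overlap came from D29-2, D29-3 and D29-6. Gata4-1 was not detected in any D23 cell (0 of 10, with an upper limit of 30.8%) and was detected in 5 D29 cells, highest in D29-4 at 5.68 and D29-1 at 5.06, and lower in D29-5, D29-9 and D29-10. Its mean was 2.29 cycles higher, with the undetected cells counted as 0. All 5 also detected Gata4-2.

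Mef2C-2 was detected in 4 D23 cells at 2.44 to 4.85 and in 8 D29 cells at 3.05 to 6.56. Its means were 1.46 ± 1.97 and 3.63 ± 2.17 (SD, n = 10 cells each), 2.17 cycles apart. The other assay, Mef2C-1, was detected in 7 and 9 cells, with means of 1.82 ± 1.41 and 3.30 ± 1.49 (SD, n = 10 cells each), 1.48 cycles higher on D29. Both assays thus gave the same direction over the days, but single cells were read differently. The assays had the same detection state in 12 of 20 cells, and their correlation was 0.32 over both days. Within a day it was lower, at 0.18 among D23 cells and 0.06 among D29 cells. For Gata4 the state was the same in 13 of 20 cells, with a correlation of 0.69.

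Nkx2-5, a homeobox factor of heart muscle from the earliest stages on, was detected in all 20 cells by Nkx2.5-1. Levels on this assay were 4.91, 7.36 and 8.19 (lowest, median, highest) on D23 and 5.87, 8.27 and 9.60 on D29. The means of 6.81 ± 1.22 and 7.86 ± 1.29 (SD, n = 10 cells each) differ by 1.05 cycles, less than either SD. The difference was 0.90 without D29-2 and D29-3. Nkx2.5-2 was detected in 9 and 10 cells and was higher by 1.45 cycles, from 4.04 ± 1.76 to 5.49 ± 1.26 (SD, n = 10 cells each). Its one D23 cell without a signal was D23-8, and leaving that cell out brought the difference to 0.998. For Nkx2.5-1 single exclusions gave 0.84 to 1.27, the lowest without D23-9.

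The paired bHLH factors Hand1 and Hand2, of the left and right ventricle in the embryo, went opposite ways in detection. Hand1 was detected in 9 D23 cells and 6 D29 cells, with means of 4.93 ± 2.48 and 3.62 ± 3.23 (SD, n = 10 cells each), 1.31 cycles lower on D29. Its highest cells were D23-1 at 8.08 and D29-2 at 7.31, and the cells without a signal were D23-9, D29-1, D29-6, D29-8 and D29-10. Among detecting cells the mean was 5.47 on D23 and 6.03 on D29, so the direction turned when undetected cells were left out. Hand2 was detected in 5 D23 cells at 4.82 to 6.25 and in 8 D29 cells at 2.84 to 6.43. Its mean was 2.78 ± 2.95 and 3.89 ± 2.33 (SD, n = 10 cells each), 1.11 cycles higher on D29, whereas its detecting cells averaged 5.55 and 4.86. Without the recurring cells Hand1 was lower by 2.16 cycles and Hand2 higher by 0.93. Leaving out single cells gave -1.86 to -0.91 for Hand1 and 0.80 to 1.54 for Hand2, so a single cell takes either one under 1 cycle; for Hand1 these cells were D23-1, D29-1, D29-6, D29-8 and D29-10.

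**Figure D3:**
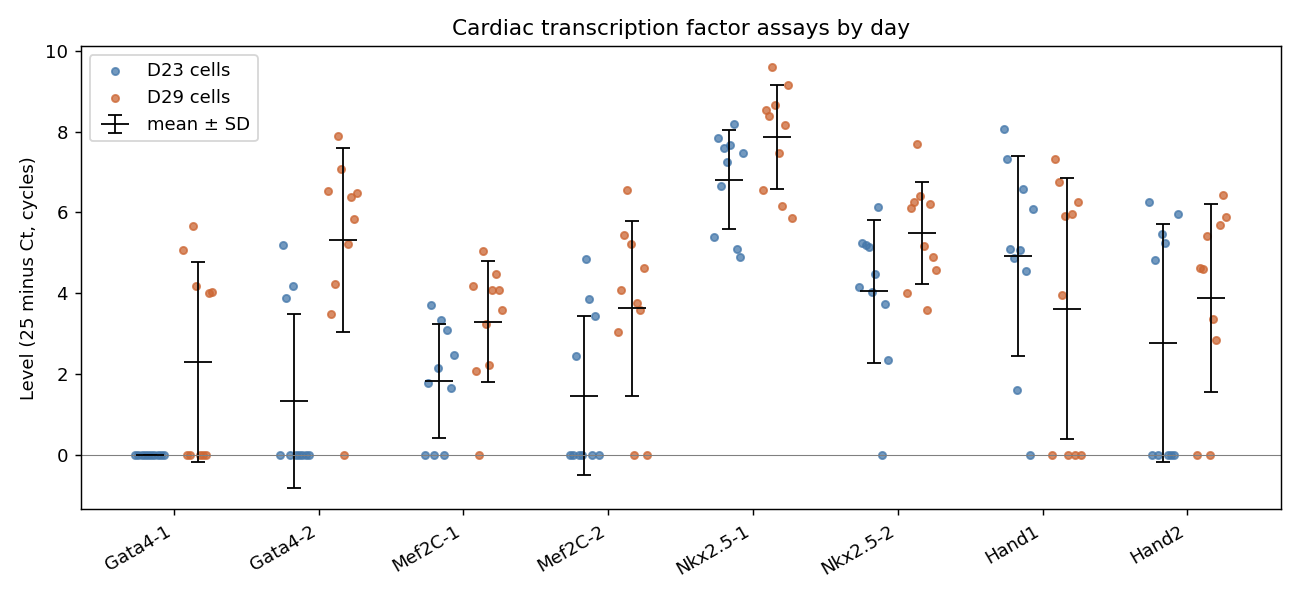
Level (25 minus Ct, cycles) of 8 assays for cardiac transcription factors in each D23 (blue) and D29 (orange) cell, with bars for the mean ± SD between the 10 cells of a day and undetected cells at 0. The Gata4-2 means of 1.32 and 5.32 stand farthest apart, and Hand1 has 1 D23 cell and 4 D29 cells at 0.

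The list of progenitor genes and transcription factors holds 16 assays, of which 12 were detected. On D29, 9 were at least 1 cycle higher, 1 lower (Hand1) and 6 within 1 cycle, beside 38.1% higher over all 42 assays. The median difference was 1.08 cycles, beside 0.61 for all assays. It was 0.61 with the limit at Ct 23 and 0.19 with medians over cells. Besides the factors above, the higher ones were Tbx5, described with the chamber genes, and Pdgfra, the receptor of platelet-derived growth factor on mesenchyme and early cardiac progenitors. Pdgfra was detected in 1 D23 cell at 4.83 and in 3 D29 cells at 4.26, 5.43 and 6.15, and its mean was 1.10 cycles higher, or 0.96 without the recurring cells and 0.59 without D29-5. The progenitor markers were scarce. Isl1, a factor of second heart field progenitors, was not detected by Isl1-1 and was detected by Isl1-2 only in D29-3, a recurring cell, at 2.48 and D29-7 at 0.22. Kit, a receptor used to mark progenitors, was not detected by Kit-1 and was detected by Kit-2 in 1 and 3 cells at 0.29 to 2.83. Mesp1, the factor of the earliest cardiac mesoderm, and Flk-1, the VEGF receptor of vascular and cardiac progenitors, were not detected in any of the 20 cells.

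The chamber genes Myl2, Sln and Myh7 were each missing from some cells, and Myl2 was higher on D29 in most cells that had it. Myl2 was detected in all 10 D23 cells, at 6.38, 8.66 and 9.88 (lowest, median, highest). On D29 it was detected in 8 of 10 cells: 11.37, 10.64, 10.16, 12.65, 7.11 and 10.75 in cells 1 to 6, and 11.63 and 11.40 in cells 8 and 9. Cells D29-7 and D29-10 gave no signal. The means were 8.43 ± 1.005 and 8.57 ± 4.74 (SD, n = 10 cells each) and differ by 0.14 cycles, while the medians were 8.66 and 10.69. Over the detecting cells the means were 8.43 and 10.71, a difference of 2.28 cycles. Of the D29 cells, 7 lay above the whole D23 range and 2 below it, so that the range of levels was wider on D29. Without the recurring cells the difference of means was -0.32 cycles, and leaving out single cells gave -0.31 to 1.09, the highest without D29-7 or without D29-10.

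Sln was detected in 3 of the 20 cells: D23-10 at 8.38, D29-2 at 3.70 and D29-10 at 12.13. By the detection of both genes, 9 of 10 D23 cells had Myl2 only (90%, exact Clopper-Pearson 95% interval 55.5% to 99.7%) and 1 had both. None had Sln only or neither (0 of 10, with an upper limit of 30.8% for each). On D29, 7 of 10 cells had Myl2 only (70%, 34.8% to 93.3%), 1 had both, 1 had Sln only and 1 had neither. The intervals of the days overlap widely. The cell with both on D29 was D29-2, which recurs among the reference cells; without D29-2 and D29-3 the number of D29 cells with both was 0. No cell was removed as a doublet, and whether the cells with both genes were 1 cell or 2 was not tested.

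**Figure D4:**
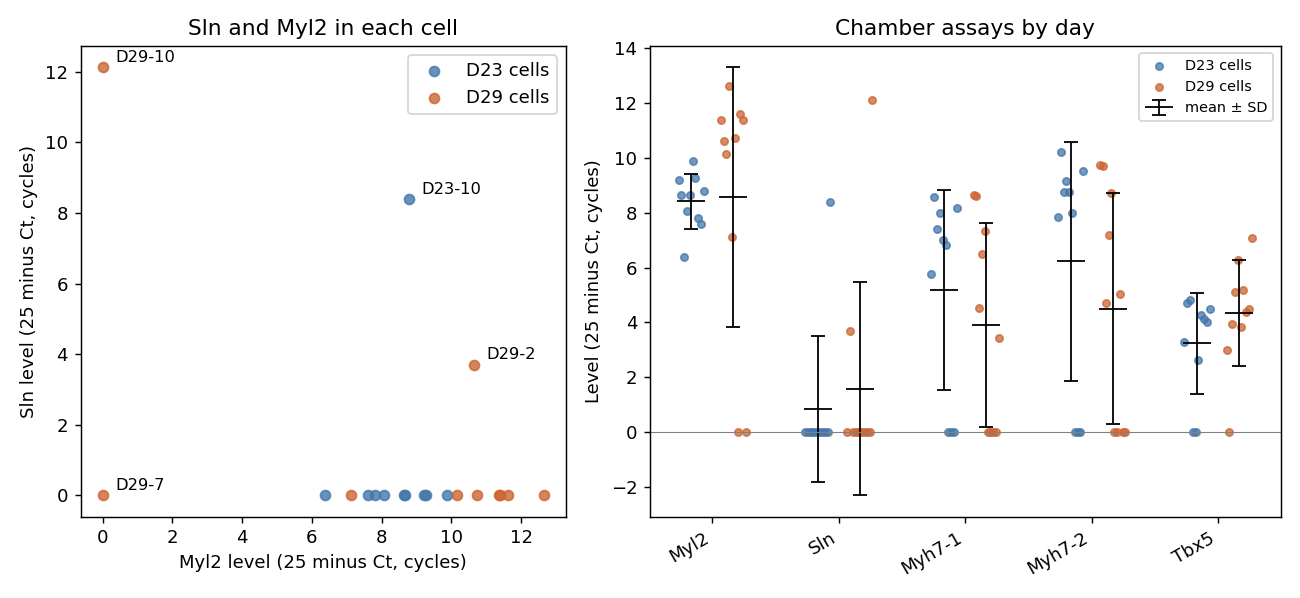
Left, Sln against Myl2 level (25 minus Ct, cycles) in each D23 (blue) and D29 (orange) cell; right, 5 chamber assays by day with bars for the mean ± SD between the 10 cells of a day. In the left panel D29-10 stands alone with Sln at 12.13 and Myl2 at 0, D23-10 and D29-2 have both, D29-7 has neither, and the other 16 cells lie along the Myl2 axis.

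The cell with Sln only, D29-10, also had the highest level of Tbx5, the T-box factor of atria and left ventricle, at 7.07. It had Myh7 at 3.45 by Myh7-1 and none by Myh7-2, and it carried Tnnt2-2 at 11.55, Myh6-1 at 11.53 and Tnni3-2 at 10.72, all within the range of the other D29 cells. Its levels of Actn2, at 6.80, and Nkx2.5-1, at 5.87, were the lowest of the D29 cells. It also had the highest level of Sm22A (transgelin, an actin-binding protein of smooth muscle and of immature heart muscle), at 6.76, and levels of 5.04 for the smooth muscle gene Cnn1 and 4.47 for the pacemaker channel Hcn4. In 5 neonatal atrial cells of another table Sln lay between 11.94 and 13.31 and Tbx5 between 7.09 and 8.97, and Myl2 was detected in 1 of 5. In 5 neonatal ventricular cells Sln was not detected and Myl2 lay between 12.48 and 14.42. Of the late ES-derived cells, only D29-4, at 12.65, lay in that Myl2 range. The tables were made separately, so these levels stand side by side without a test. The cell was given no chamber name, because only Sln and Tbx5 of the atrial markers were measured.

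D29-7, the cell with neither gene, also lacked Myh7 by both assays and detected 18 assays. Its levels of Tnnt2-2 at 10.58, Tnni3-2 at 11.01, Myh6-1 at 10.34 and Gata4-2 at 5.21 lay within the range of the other D29 cells. The cell with both on D23, D23-10, had Myl2 at 8.79, Myh7-2 at 9.54, Tbx5 at 4.49 and Tnnt2-2 at 10.81. D29-2 had Myl2 at 10.64 and Myh7-2 at 9.70, and was the one D29 cell without Tbx5.

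Myh7, the beta heavy chain of slow myosin, had the lowest difference of the 42 assays. Myh7-2 had levels of 7.86, 10.22, 8.74, 9.17, 8.78 and 8.00 in D23-1 to D23-6 and 9.54 in D23-10, with no signal in D23-7 to D23-9. On D29 it had 9.73, 9.70, 4.70, 7.18 and 8.73 in cells 1 to 5 and 5.05 in cell 8, with no signal in the other 4. The means were 6.23 ± 4.35 and 4.51 ± 4.23 (SD, n = 10 cells each), 1.72 cycles lower on D29, which is well under either SD. Over detecting cells they were 8.90 and 7.51. The D29 cells with a signal thus reached from D23-like levels down to below the lowest D23 signal. Myh7-1 averaged 5.17 ± 3.65 and 3.91 ± 3.73 (SD, n = 10 cells each), 1.26 cycles lower, and its correlation with Myh7-2 was 0.94 over the 20 cells. Without the recurring cells the differences were -2.40 cycles for Myh7-2 and -1.93 for Myh7-1.

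The number of cells with Myh7 was the same on both days: 7 of 10 (70%, 34.8% to 93.3%) by either assay. Both assays gave a signal in 7 D23 cells and 5 D29 cells, because D29-8 had only Myh7-2 and D29-10 only Myh7-1. The cells with none were D23-7, D23-8, D23-9, D29-6, D29-7 and D29-9. The 5 cells with the fewest detected assays of all 20, at 17 or 18, are 5 of these 6, while D29-9 detected 23. The part of the number of detected assays in the Myh7 result was not tested. Without these 5 cells the Myh7-2 difference was -3.27 and the Myh7-1 difference -2.50. As none of these cells has a Myh7 signal and most are D23 cells, leaving them out widens the difference by construction. Setting aside the 2 D29 cells without Myl2 brought the differences to -0.60 and -0.72. Those 2 cells have no Myh7-2 signal either, so that step raises the D29 mean of Myh7-2 by construction. The size of the Myh7 difference thus rests on which cells are counted. Leaving out single cells gave -2.42 to -1.22 for Myh7-2 and -1.84 to -0.83 for Myh7-1; without D29-6, D29-7, D29-8 or D29-9 the latter was -0.83, and it was also under 1 cycle in size without D23-2, D23-4 or D23-10.

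Tbx5 was detected in 8 D23 cells at 2.63 to 4.81 and in 9 D29 cells at 3.01 to 7.07. Its means were 3.23 ± 1.83 and 4.33 ± 1.93 (SD, n = 10 cells each), 1.10 cycles higher on D29, with 4 D29 cells above the highest D23 cell. The difference was 0.74 without D23-4 or D23-5, 0.88 without D29-5, 0.80 without D29-10 and 1.69 without the recurring cells. Of the 4 assays in the ventricular list (Myl2, both of Myh7, and Hand1), 3 were lower and Myl2 was within 1 cycle, with a median difference of -1.29 cycles. That median was -0.16 over detecting cells, where Hand1 was 0.56 and Myl2 2.28 cycles higher on D29. It was -0.66 without the 2 D29 cells lacking Myl2 and -2.05 without the recurring cells. Of the 2 atrial assays, Tbx5 was higher and Sln was within 1 cycle at 0.74, which became -0.43 without D29-10 and 1.58 without D23-10. The cardiomyocyte list of 10 assays had 5 higher, 2 lower and 3 within 1 cycle, with a median of 1.07 cycles. These lists overlap, and each is small beside the 42 assays, of which 38.1% were higher.

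Over both days, Myl2 levels ran less closely with those of the other contractile genes than Tnnt2-1 and Myh6-1 did with each other. The correlation of Myl2 was 0.30 with Tnnt2-1, 0.47 with Actn2 and -0.03 with Tnni3-1, including the 2 D29 cells without a Myl2 signal. Within D23 and D29 it was 0.57 and 0.55 with Tnnt2-1. Among D29 cells it was 0.60 with Actn2, 0.22 with Myh6-1 and -0.08 with Tnni3-1. A low value was not particular to Myl2: among D29 cells Tnnt2-1 had 0.22 with Tnni3-1 and 0.68 with Myh6-1. Actn2 and Tnnt2-1 had a correlation of 0.90 among D23 cells and 0.47 among D29 cells. With 10 cells a day, and D23-9 at the low end of both genes, these values are descriptions only.

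The endothelial markers gave no signal, while smooth muscle and mesenchymal assays gave some. At least 1 smooth muscle assay was detected in 8 D23 and 7 D29 cells. All 4 endothelial assays (Cdh5 and Pecam1, junction proteins, Vwf, a clotting factor of endothelium, and Flk-1) were at 0 in all 20 cells, as was Myh11, the defining myosin of smooth muscle, and Tbx1, a T-box factor of the pharyngeal arches and outflow tract. Of the other smooth muscle assays, Sm22A was detected in 7 cells on each day, at 0.10 to 4.90 on D23 and 0.61 to 6.76 on D29, and Cnn1 in 2 cells on each day at 4.83 to 7.37. The calponin Cnn2 was detected in 4 D23 and 2 D29 cells and averaged 0.89 cycles lower on D29, and 1.43 cycles lower without the recurring cells. Vcam1, an adhesion molecule of developing heart muscle, was detected in 2 and 1 cells.

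The fibroblast and mesenchyme assays were higher in part. Vim, the intermediate filament vimentin of mesenchymal and immature cells, was detected in 5 D23 cells at 3.90 to 5.89 and in 6 D29 cells at 4.70 to 7.504. Its means of 2.47 ± 2.67 and 3.66 ± 3.23 (SD, n = 10 cells each) differ by 1.19 cycles, by 0.77 without D29-5 and by 0.57 without D29-2 and D29-3. Fn1, the matrix protein fibronectin, was detected in 3 and 4 cells and was 0.64 cycles higher. With Pdgfra these are the 3 assays of the list. At least 1 of them was detected in 7 D23 and 6 D29 cells, and their summed level ran from 0 to 9.21 on D23 and from 0 to 16.1 on D29. D29-5 held the highest Vim and Pdgfra levels, at 7.504 and 6.15, beside Tnnt2-2 at 11.31 and Myh6-1 at 11.05. The part of such transcripts in the day differences was not tested.

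The pluripotency assays were not at 0 either. Pou5f1 (Oct4), a factor of undifferentiated ES cells, was detected in all 20 cells, at 5.17 to 6.81 on D23 and 4.65 to 6.17 on D29. Its means of 5.67 ± 0.48 and 5.38 ± 0.43 (SD, n = 10 cells each) differ by -0.29 cycles. The negative control gave no Pou5f1 signal. In other tables Pou5f1 was detected in all 5 neonatal ventricular cells, at a mean of 5.11 ± 0.89 (SD, n = 5 cells), and in 3 of 6 ES-derived D8 cells. It was also detected in 9 of 10 adult ventricular and 8 of 10 adult atrial cells. Sox2, its partner in ES cells, was detected in 1 D23 cell at 2.76 and in 4 D29 cells at 1.99 to 4.59, a difference of means of 1.01 cycles. Without D29-6, its highest cell, the Sox2 difference was 0.65. In other tables Sox2 was detected in 2 of 6 D8, 4 of 5 neonatal ventricular, 6 of 10 adult ventricular and 8 of 10 adult atrial cells. A signal on either assay was thus not particular to the late ES-derived cells.

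**Figure D5:**
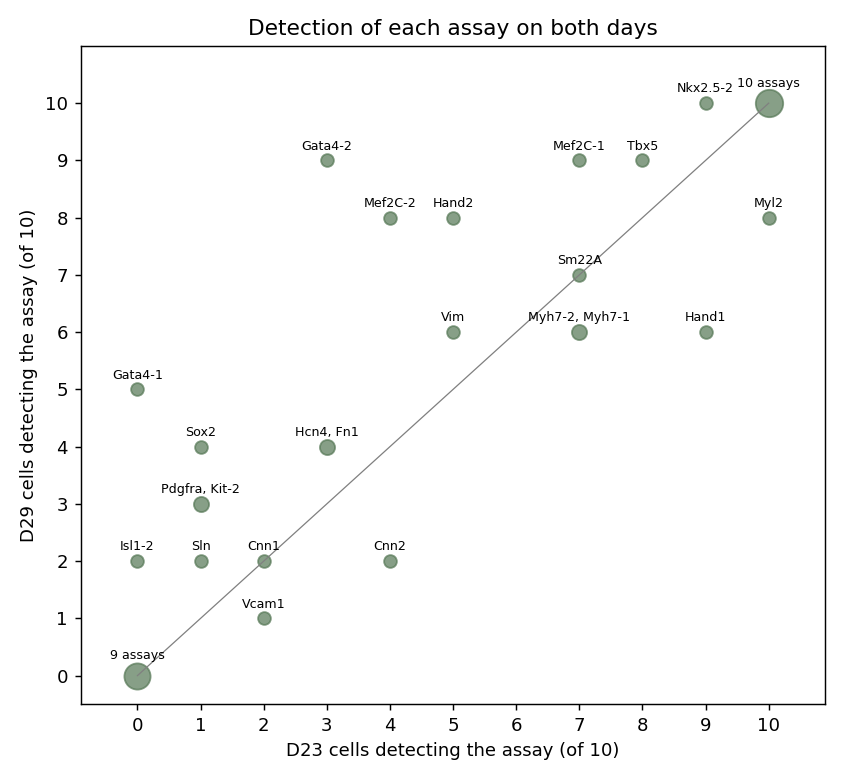
Number of D29 cells (of 10) against number of D23 cells (of 10) that detected each assay; point area grows with the number of assays at a position, and the grey line marks equal numbers. Gata4-2 (3 and 9 cells) lies farthest above the line and Hand1 (9 and 6 cells) farthest below it, while 10 assays were detected in all cells and 9 in none.

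Beside cells of other ages, the late ES-derived cells did not follow 1 order. The comparison sets are 6 ES-derived D8 cells and 5 neonatal ventricular cells, each from its own table, so the levels are set side by side without a test. The sample titles of the D8 cells name an embryo stage instead, and the cell names were followed. The positive controls of the D23-D29 and D5-D8 tables differ by a median of -0.88 cycles, with the lower Ct in the D23-D29 table. This size is close to some gaps below, and whether levels are on 1 scale across tables is not known. The levels were not scaled to Actb. Actb averaged 7.09 ± 1.59 (SD, n = 6 cells) in D8 cells, beside 5.84 on D23 and 5.62 on D29. In neonatal ventricular cells Actb averaged 4.91 ± 0.76 (SD, n = 5 cells). The part of Actb in the gaps below was not tested. Gata4-2 averaged 7.05 ± 1.20 in D8 cells and 7.76 ± 0.77 in neonatal ventricular cells, above both the D23 mean of 1.32 and the D29 mean of 5.32. Of the 16 assays that were higher on D29, the D23 mean lay below the D8 mean for 16 and the D29 mean for 12. The other 4 were contractile: both assays of Tnnt2, Tnni3-2 and Myh6-1. Tnnt2-2 averaged 10.61 in D8 cells, between 9.69 on D23 and 11.56 on D29, and Tnni3-2 averaged 9.66, between 8.77 and 10.60. Against neonatal ventricular cells, the D29 means of all 10 cardiomyocyte assays were lower: Tnnt2-2 was at 12.76 there, Tnni3-2 at 12.23, Myh6-1 at 12.14 and Myl2 at 13.27.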

How the data were processed

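Per the labels' protocols, sorted single cells were lysed in wells, their RNA was copied to cDNA in one step, the targets were pre-amplified with the TaqMan assays, and each assay was read on Fluidigm chips (BioMark). The values the authors deposited are Ct, and 25 stands for no signal, as the values show. Any reference-gene correction, Ct threshold or filter on cells by the authors is not given in the sources used here. Because Ct ends at 25, weak and absent template read alike.

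Levels (25 minus Ct), means, SDs, detection shares with exact Clopper-Pearson 95% intervals and Pearson correlations were computed with Python 3.11.15, numpy 2.4.6, pandas 2.3.3 and scipy 1.17.1. The code for differences and Actb scaling was tested on simulated data. The simulated differences held almost no undetected cells, so that run does not cover assays with many of them. Each cell's day came from its name in the table. No test was made, since no label names a culture. Precision is limited by 10 cells a day. The 2 calponin assays are called Cnn1 and Cnn2, the Myh11 assay is 1 assay, and Sm22A is Tagln; 30 of 33 gene names matched a RefSeq symbol and 3 a synonym.

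Assays given in full were those at least 1 cycle apart or at least 3 cells apart in detection, and the chamber assays and given markers (Gata4-2, Mef2C-2, Tnnt2-2 and Myl2). Sets of cells and single assays beyond these were named after their values were seen. Members, lists and this rule were chosen with earlier results of these data known. Alternatives were Actb and median centring, a limit at Ct 23, means over detecting cells (where at least 3 cells of each day detect the assay), medians, a filter on cells at 3 median absolute deviations, 2 cycles as the threshold, leaving out the recurring cells, and leaving out each cell. In both kinds of centring, undetected values took the lowest centred value of any assay and cell.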

Additional observations from a re-analysis of the deposited data

Results flagged for a closer look

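Within the 10 cells of a day, a cell far from the others was looked for on each assay with any signal. Of 64 sets of 10 cells, 10 held such a cell. Chance gives about 1 in 20 for values without ties, a rate that does not apply to sets with many undetected cells. In 5 of the 10, the cell was the only one of its day with a signal, and such a cell always stands apart by this measure. These were Sln in D23-10 at 8.38, Pdgfra in D23-3 at 4.83, Sox2 in D23-1 at 2.76, Kit-2 in D23-2 at 1.80 and Vcam1 in D29-5 at 4.19.

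Of the other 5, D29-10 held 2. Its Sln level was 12.13, with the next cell at 3.70, and its Sm22A level was 6.76, with the next at 2.89. Isl1-2 in D29-3 was at 2.48 with the next at 0.22, and that cell recurs among the reference cells. On D23, the Tnnt2-1 level of D23-9 was 6.61 with the next lowest at 9.33. The Pou5f1 level of D23-1 was 6.81 with the next highest at 5.91.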

How the results depend on the processing

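With means over detecting cells only, 10 assays were at least 1 cycle higher on D29 and 1 lower, and 2 assays turned direction: Hand1 to 0.56 and Hand2 to -0.69 cycles. This setting gives a value only where at least 3 cells of each day detected the assay, so its counts are over fewer assays. Gata4-1, Pdgfra and Sox2, higher in the main setting, have no value in it. With a threshold of 2 cycles, 3 assays were higher and 0 lower. Leaving aside the 2 D29 cells without Myl2, chosen after seeing the data, left 1 assay lower. Leaving out each cell in turn gave 11 to 17 higher and 1 to 4 lower, with 1 lower without D29-6 or without D29-8. Without the recurring cells the number of D29 cells with both Sln and Myl2 was 0. Scaling cells to Actb gave 16 higher and 3 lower, scaling to each cell's median detected level 17 and 3, the limit at Ct 23 gave 11 and 2, medians over cells 14 and 2, and the filter on cells removed 0 cells. Leaving aside the 5 cells with the fewest assays, also chosen after seeing the data, gave 14 and 3. Why these counts moved was not tested. No paired analysis was possible because no label pairs D23 with D29 cells and no test was made. Depth is not known beyond the number of assays detected, and a level near 0 cannot be told apart from none.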
